A study of Homo sapiens with 32 samples.

Results

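Chromatin loops on human chromosomes 16, 17 and 22 were taken from 4 loop lists. The cells were HEK293, a line derived from human embryonic kidney. The set comprised every loop whose first chromosome was 16, 17 or 22. They numbered 3921 of 45629 loops in all. Loops had been mapped by in situ Hi-C, which cuts and religates DNA inside nuclei and so records which segments lie close together. The groups were wild-type HEK293 cells, untreated or with 200 mM sorbitol for 1 h, and HEK293 cells of the genotype eGFP-YAP, a green fluorescent fusion of the transcriptional co-activator YAP, also untreated or with 200 mM sorbitol for 1 h. The labels name 3 samples for each wild-type group and 4 for each eGFP-YAP group, but each group has 1 pooled loop list. The design text adds 1 h without serum before sorbitol for eGFP-YAP cells. It does not say so for the wild-type cells. The promoter of eGFP-YAP and the number of clones behind that line are not given in the sources used here. The growth protocol speaks of HEK293T where the labels have HEK293, and loop lists hold no expression values by which the line could be checked. The lists of the lines also carry different source names, so line and source cannot be told apart.

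Each condition has 1 list, so replicates could not be compared and no difference between conditions below was tested. Intervals are 95% intervals that cover counting error over loops, windows or anchors only. The sequencing depth behind each list is unknown, so ratios of loop counts describe the lists.

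Most long-lived loops of unstressed mammalian cells form where cohesin, a ring-shaped complex that extrudes DNA, is stopped by CTCF, a zinc-finger protein bound to an oriented motif. Such loops usually join motifs that point towards each other. Contacts between active promoters can arise without this arrangement. Hyperosmotic medium draws water from cells and crowds the nucleus. Chromosomes 16, 17 and 22 belong to the gene-rich part of the human genome, which tends to lie in active, GC-rich chromatin.

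That label held in the annotation. Chromosome 17 has 14.3 protein-coding genes per sequenced Mb, chromosome 22 has 11.4 and chromosome 16 has 10.5, ranks 2, 3 and 4 of the 23 chromosomes with loops, against 6.86 over all of them. The genes are spread unevenly. The 207 windows of 1 Mb that were at least 50% sequenced held between 0 and 70 protein-coding gene starts, with a median of 9, and 24 windows held none.

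The sequences behind the strongest loops are shown first, since the results below turn on what anchors hold, a CTCF motif or a gene start. The highest-ranking loop of chromosome 16 called in all 4 lists joined chr16:77235001-77240000 to chr16:77585001-77590000, both outside protein-coding genes, over 350 kb. That of chromosome 17 joined chr17:5585001-5590000, within the inflammasome sensor gene NLRP1, to chr17:6420001-6425000, within AIPL1, a photoreceptor chaperone gene, over 835 kb. That of chromosome 22 joined chr22:43990001-43995000, within SAMM50, a gene for a mitochondrial outer membrane protein, to chr22:44630001-44635000 over 640 kb and held no motif match. Each line below gives the best match to the 14-base core CTCF motif in an anchor, in capitals, with 30 bases on each side, read 5′ to 3′ on the strand of the motif from hg38. The chromosome 17 matches lie in introns of NLRP1 and AIPL1.
Chromosome 16 left anchor, chr16:77236139-77236212, plus strand: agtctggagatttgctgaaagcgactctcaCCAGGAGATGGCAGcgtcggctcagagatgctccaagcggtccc
Chromosome 16 right anchor, chr16:77587040-77587113, minus strand: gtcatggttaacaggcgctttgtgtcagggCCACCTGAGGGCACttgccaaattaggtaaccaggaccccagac
Chromosome 17 left anchor, chr17:5587590-5587663, plus strand: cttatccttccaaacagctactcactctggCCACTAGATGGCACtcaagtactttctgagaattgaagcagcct
Chromosome 17 right anchor, chr17:6422161-6422234, minus strand: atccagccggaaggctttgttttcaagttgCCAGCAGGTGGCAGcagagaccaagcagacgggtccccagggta
In both loops the left match is on the plus strand and the right match on the minus strand, so the motifs point towards each other. The chromosome 17 matches have 0 mismatches and the chromosome 16 matches 1 each.

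Among loops lost in both lines, a 290 kb loop of chromosome 17 had a mean score percentile of 99.6. Score percentiles rank the caller's peak score within a list. It joined chr17:410001-415000, which holds the start of C17orf97, to chr17:700001-705000, within VPS53, which encodes a subunit of a complex that tethers vesicles at the Golgi. Its matches, each with 1 mismatch and each in an intron of these genes, also point towards each other, so this arrangement was present in a loop that was not called again.
C17orf97 anchor, chr17:411163-411236, plus strand: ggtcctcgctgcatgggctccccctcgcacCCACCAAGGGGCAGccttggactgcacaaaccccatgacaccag
VPS53 anchor, chr17:700666-700739, minus strand: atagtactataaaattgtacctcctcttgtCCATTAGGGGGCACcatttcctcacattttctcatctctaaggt
The lost loop named on chromosome 16 spanned 855 kb, from chr16:75795001-75800000 to chr16:76650001-76655000, with a mean percentile of 97.6. The lost loop named on chromosome 22 spanned 130 kb, from the start of CCDC188 in chr22:20150001-20155000 to the start of RTN4R, the receptor for the axon growth inhibitor Nogo, in chr22:20280001-20285000, with 99.0. Neither loop had a motif match in an anchor. The chromosome 22 loop lies between 16 and 25 Mb, where wild type had only 11 control loops and 1 sorbitol loop. Its loss in wild type cannot be told apart from the few calls there.

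Anchors of matched loops are given as called in wild type, and in eGFP-YAP they can lie up to 10 kb away. In these wild-type anchors, the top-ranking loops gained in both lines had a gene start at both anchors on chromosomes 16 and 22 and at a single anchor on chromosome 17. On chromosome 16 a loop of 140 kb, at a mean percentile of 98.4, linked chr16:4955001-4960000, with the start of SEC14L5, a lipid-binding protein gene, to chr16:5095001-5100000, with the start of EEF2KMT, which methylates a translation elongation factor. On chromosome 22 a 190 kb loop with 97.0 joined chr22:28880001-28885000, with the start of ZNRF3, to chr22:29070001-29075000, with the start of KREMEN1. Both encode membrane proteins that restrain Wnt signalling. On chromosome 17 a 485 kb loop with 96.7 joined chr17:490001-495000, outside protein-coding genes, to chr17:975001-980000, with the start of NXN, which encodes the redox protein nucleoredoxin. The SEC14L5, EEF2KMT, ZNRF3 and KREMEN1 anchors held no CTCF motif match, while the anchors of the NXN loop held 1 each, with 1 mismatch, and these point towards each other as in the loops above. The eGFP-YAP call of the NXN loop has its right anchor at chr17:980001-985000, which holds neither the NXN start nor that match. For SEC14L5 and NXN, whose RefSeq starts (GRCh38.p14) lie in these anchors, the 250 bases before the start are given 5′ to 3′ on the gene's strand, with GGGCGG and its complement CCGCCC, a GC box, in capitals.
SEC14L5, chr16:4958080-4958329, plus strand: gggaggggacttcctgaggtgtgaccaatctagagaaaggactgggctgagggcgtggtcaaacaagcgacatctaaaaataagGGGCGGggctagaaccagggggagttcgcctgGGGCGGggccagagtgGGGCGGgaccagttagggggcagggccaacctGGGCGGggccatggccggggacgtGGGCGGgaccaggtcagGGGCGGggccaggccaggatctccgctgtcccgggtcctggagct
NXN, chr17:979777-980026, minus strand: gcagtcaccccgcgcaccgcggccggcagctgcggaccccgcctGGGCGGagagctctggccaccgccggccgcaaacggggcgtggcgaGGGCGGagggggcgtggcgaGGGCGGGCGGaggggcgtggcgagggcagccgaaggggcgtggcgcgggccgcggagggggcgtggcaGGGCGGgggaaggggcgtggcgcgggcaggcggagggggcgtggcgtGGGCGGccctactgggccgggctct
Each holds 6 such boxes, of which 2 overlap in NXN, and the GC content is 67.6% and 82.8%. A box is present in 50.8% of the 3600 RefSeq promoters of these chromosomes and in 42.6% of all 35116, so its presence is common and is given as a description.

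Fewer loops were called with sorbitol, and the drop was smaller on these chromosomes together than on the others together. Among the 23 chromosomes with loops, the ratio of sorbitol to control loops ranked 2 on chromosome 22 in both lines, 3 and 5 on chromosome 16 and 6 and 3 on chromosome 17, so that other chromosomes reached ratios as high. Wild-type cells had 1027 control and 590 sorbitol loops, a ratio of 0.574 (exact interval 0.518 to 0.636), against 0.376 (0.364 to 0.388) on all other chromosomes. In eGFP-YAP cells 1588 control and 716 sorbitol loops gave 0.451 (0.412 to 0.493), against 0.280 (0.271 to 0.289). The intervals did not overlap in either line. On chromosome 16 the counts were 284 and 184 in wild type, a ratio of 0.648, and 479 and 189 in eGFP-YAP, 0.395. On chromosome 17 they were 488 and 220 in wild type, 0.451, and 745 and 315 in eGFP-YAP, 0.423. On chromosome 22 they were 255 and 186 in wild type, 0.729, and 364 and 212 in eGFP-YAP, 0.582. Chromosome 22 had the highest ratio of the 3 in both lines, with an interval that overlapped that of chromosome 16 in wild type. Chromosome 16 lay above chromosome 17 in wild type, and in eGFP-YAP their intervals overlapped.

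A control loop was counted as lost when no sorbitol loop of the same line had both anchor centres within 10 kb, and a sorbitol loop as gained when no control loop did. A control loop that was not lost is called kept. Of the control loops, 947 of 1027 were lost in wild type, 92.2% (Wilson interval 90.4 to 93.7), and 1393 of 1588 in eGFP-YAP, 87.7% (86.0 to 89.2). Over all chromosomes 92.2% and 90.7% were lost. Loss in wild type was thus at the background, and in eGFP-YAP slightly under it. Gained loops made up 508 of 590 sorbitol loops in wild type, 86.1% (83.1 to 88.7), against 79.9% over all chromosomes. In eGFP-YAP they made up 521 of 716, 72.8% (69.4 to 75.9), against 68.4%. The share gained lay above that of all other chromosomes in both lines, 79.2% (78.1 to 80.3) and 67.8% (66.5 to 69.1). The higher ratio on these chromosomes therefore went with more gained loops per control loop and, in wild type, not with a lower share lost.

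Part of the loss and gain was shared by the lines. Of the wild-type lost loops, 359 were also lost in eGFP-YAP, 37.9% (34.9 to 41.0) against 33.5% over all chromosomes, and 360 eGFP-YAP lost loops were also lost in wild type, 25.8% (23.6 to 28.2) against 27.3%. Gained loops shared by the lines numbered 79, which is 15.6% (12.7 to 18.96) of those in wild type against 15.5% over all chromosomes, and 15.2% (12.3 to 18.5) of those in eGFP-YAP against 19.2%. Sharing of lost loops in wild type was thus slightly above the background, that of gained loops in eGFP-YAP slightly below it, and the other 2 shares at it. Between the untreated lists, 47.8% (44.8 to 50.9) of wild-type loops had a match in eGFP-YAP, and 31.0% (28.8 to 33.3) of eGFP-YAP loops had a match in wild type.

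**Figure D1:**
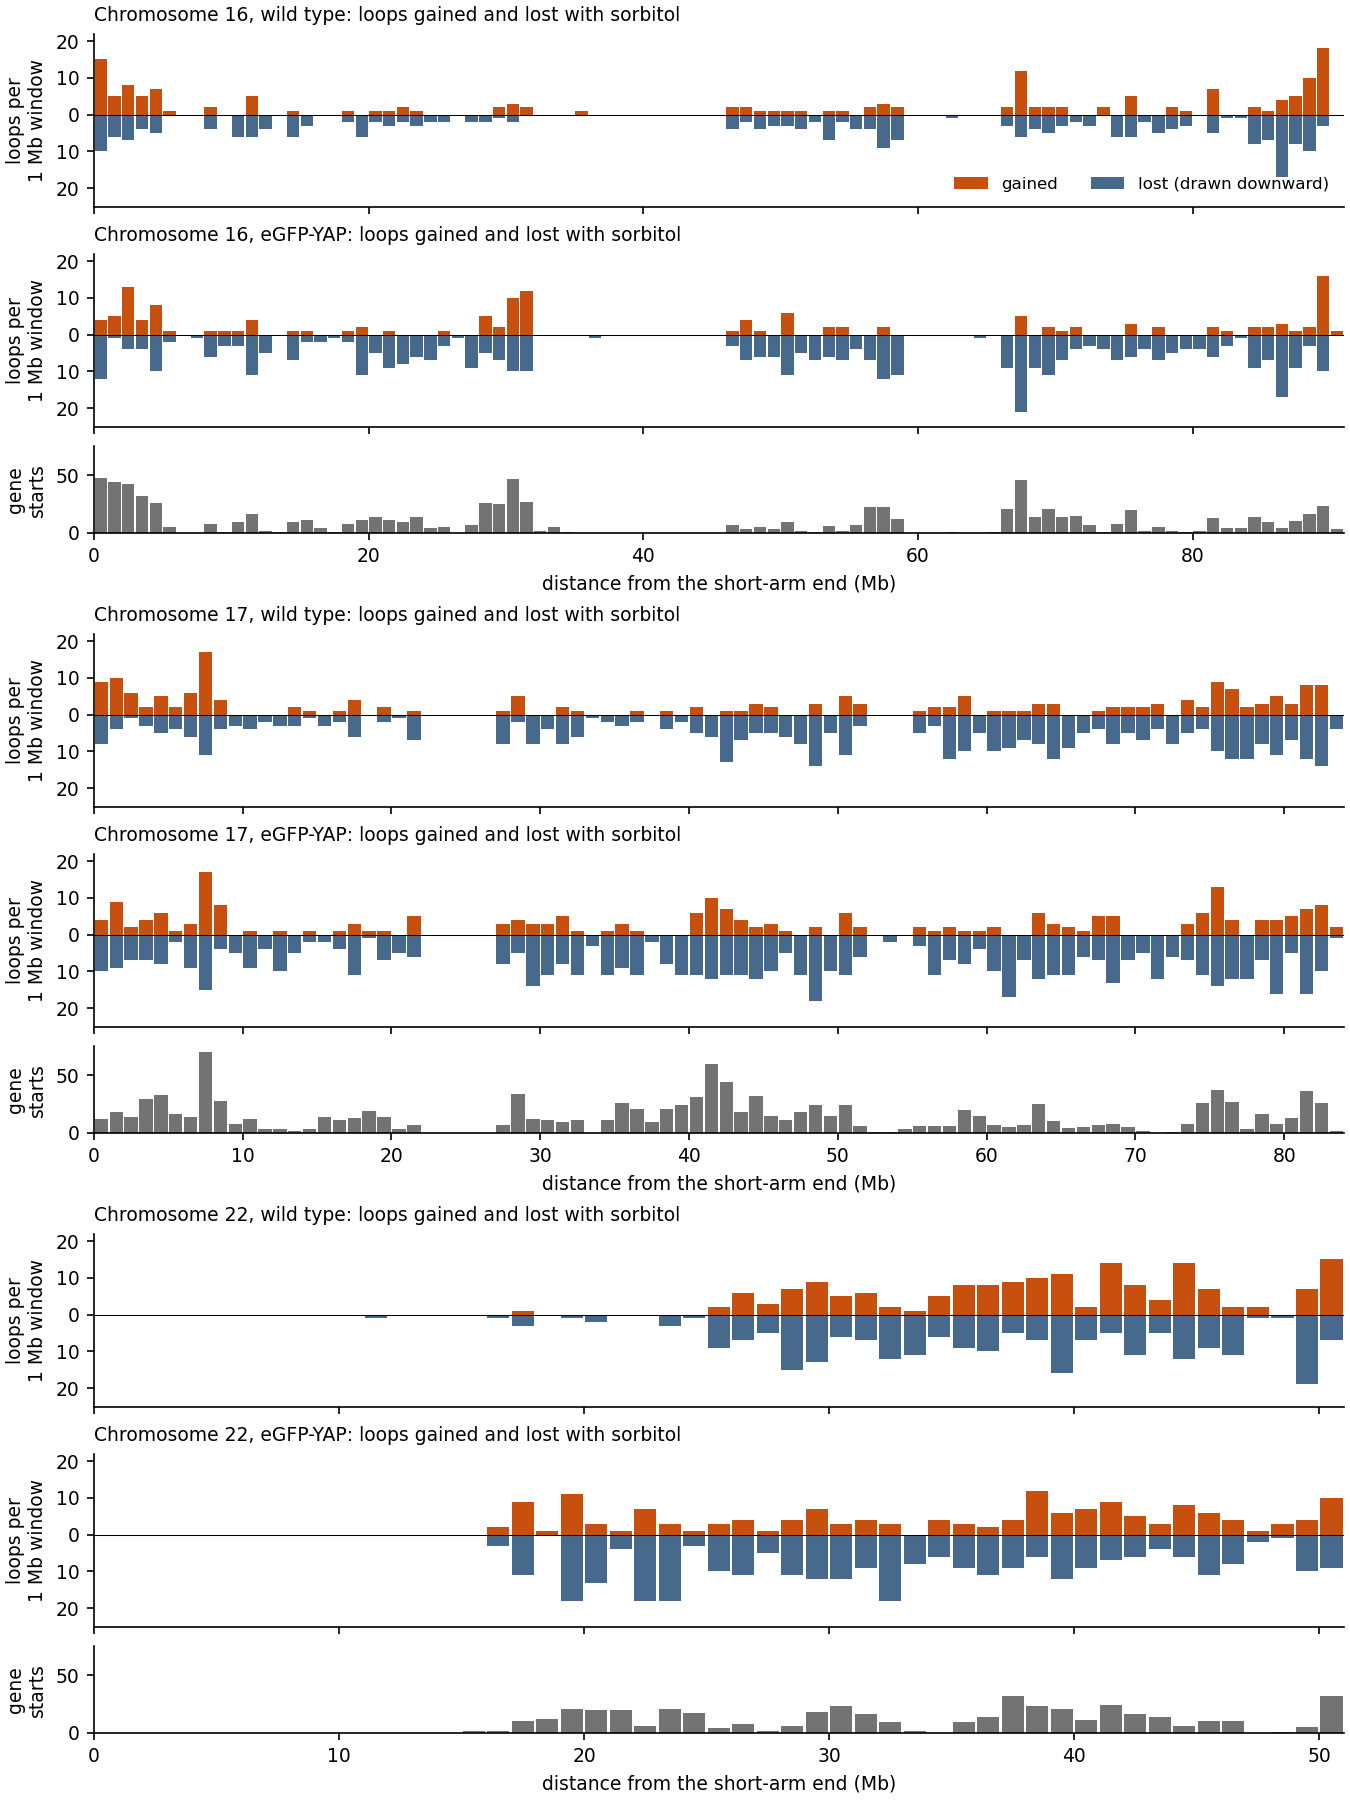
Loops gained with sorbitol (upward, orange) and lost with sorbitol (downward, blue) in 1 Mb windows along chromosomes 16, 17 and 22 in each line, over protein-coding gene starts per window (grey), by distance from the short-arm end in Mb. Gained loops stand highest in the windows at 89 Mb of chromosome 16 and 7 Mb of chromosome 17, and the windows from 16 to 25 Mb of chromosome 22 hold 11 wild-type control loops against 101 in eGFP-YAP.

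Loops were then placed by their midpoint in 1 Mb windows. No loop of either list fell in 37 of the 207 windows in wild type and in 24 in eGFP-YAP, and 31 and 23 of these held 0 to 4 gene starts. Among them are the windows starting at 22 to 26 Mb of chromosome 17 and 12 to 15 Mb of chromosome 22, empty in all lists. Whether reads can be placed uniquely there was not tested, and empty windows count in the values per window below. The lines differed sharply in 1 stretch, which was chosen after its values were seen. Between 16 and 25 Mb of chromosome 22, with 129 protein-coding gene starts, wild type had 11 control loops and 1 sorbitol loop, whereas eGFP-YAP had 101 and 51. Outside it, chromosome 22 had 244 and 185 loops in wild type, a ratio of 0.758, and 263 and 161 in eGFP-YAP, 0.612. A smaller gap of the same kind lay between 28 and 32 Mb of chromosome 16, where wild type had 5 control and 7 sorbitol loops and eGFP-YAP 34 and 31. Over all 207 windows, Spearman's rho between the lines was 0.633 for gained loops per window and 0.685 for lost loops.

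Gene-poor windows held the fewest loops in every list. Wild-type control loops were about as frequent in all windows of 5 or more gene starts, with 6.28, 6.12 and 6.52 per window in the classes of 5 to 9, 10 to 19 and 20 or more, whereas sorbitol loops went from 2.37 to 3.47 and 5.71. These classes include windows of the stretches named above where wild type had few loops. In eGFP-YAP, control loops went from 8.65 to 8.98 and 11.4 per window, and sorbitol loops from 3.30 to 3.76 and 7.08. In windows of 0 to 4 gene starts there were 2.15 control and 0.657 sorbitol loops per window in wild type, and 3.39 and 0.746 in eGFP-YAP. In windows of 20 or more gene starts there were 6.52 and 5.71 in wild type, and 11.4 and 7.08 in eGFP-YAP. In wild type, sorbitol loops divided by control loops gave 0.306 (0.213 to 0.431) in the 67 windows of 0 to 4 gene starts, 0.378 (0.298 to 0.476) in the 43 of 5 to 9, 0.567 (0.467 to 0.686) in the 49 of 10 to 19 and 0.875 (0.742 to 1.03) in the 48 of 20 or more. In eGFP-YAP it was 0.220 (0.159 to 0.300), 0.382 (0.312 to 0.464), 0.418 (0.350 to 0.498) and 0.619 (0.539 to 0.710). The intervals of the end classes did not overlap in either line, while those of some neighbouring classes did. In the most gene-dense wild-type windows, sorbitol and control counts were within counting error of each other. In eGFP-YAP the sorbitol count stayed lower.

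The share of control loops lost was 95.8% (91.2 to 98.1) in gene-poor wild-type windows, of 0 to 4 gene starts, and 91.1% (87.4 to 93.7) in gene-dense ones, of 20 or more. It was 92.1% (87.8 to 94.9) and 88.0% (85.0 to 90.4) in eGFP-YAP. The share was lower in gene-dense windows in both lines, with overlapping intervals. Gained loops per window went from 0.567 to 5.13 (wild type) and from 0.478 to 5.71 (eGFP-YAP). Control loops lost per window went from 2.06 to 5.94 and from 3.12 to 10.1. The gained share of the sorbitol loops was 86.4% (73.3 to 93.6) in the gene-poor and 89.8% (85.6 to 92.8) in the gene-dense windows of wild type, and 64.0% (50.1 to 75.9) and 80.6% (76.1 to 84.4) in those of eGFP-YAP. The intervals of this share overlapped in wild type and did not in eGFP-YAP.

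**Figure D2:**
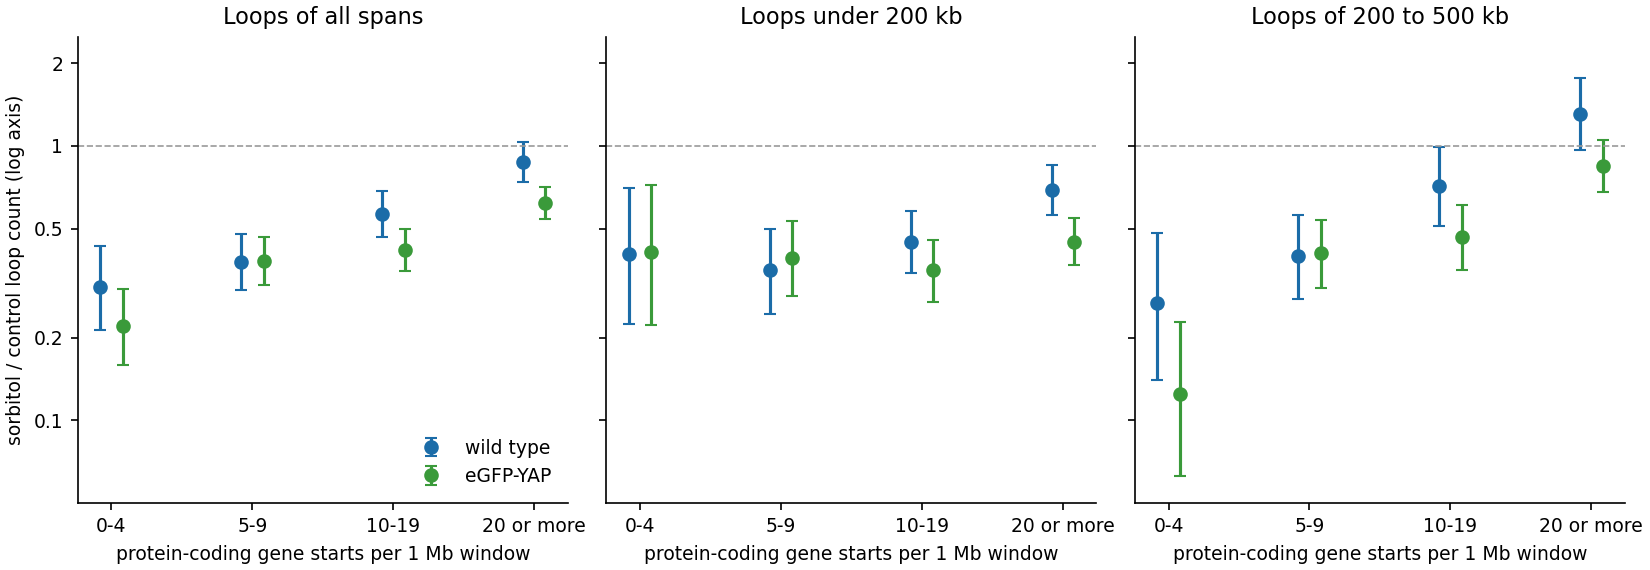
Ratio of sorbitol to control loop counts (log axis) by protein-coding gene starts per 1 Mb window, for loops of all spans, under 200 kb and of 200 to 500 kb, in wild type (blue) and eGFP-YAP (green), with exact 95% intervals for counting error. Over all spans the wild-type ratio goes from 0.306 to 0.875 and the eGFP-YAP ratio from 0.220 to 0.619, and changes least for eGFP-YAP loops under 200 kb.

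Over windows with at least 5 loops in both lists together, the share of loops that came from the sorbitol list had a rank correlation with gene starts of 0.45 in wild type (122 windows) and 0.44 in eGFP-YAP (153 windows). With the GC content of the window it was 0.48 and 0.43. Gene starts and GC content were themselves correlated, rho 0.72 over 207 windows. All windows share the same libraries and depth, so these values are descriptions. By chromosome, the correlation with gene starts was 0.72 on chromosome 16, 0.33 on 17 and 0.59 on 22 in wild type, and 0.45, 0.55 and 0.23 in eGFP-YAP. The sign was the same on each chromosome, but the chromosome with the closest relation differed between the lines.

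The same held when each chromosome was divided at 10 gene starts per window. On chromosome 16 the ratio was 0.304 in the windows below this limit and 0.918 in those above in wild type, and 0.272 and 0.496 in eGFP-YAP. On chromosome 17 it was 0.275 and 0.552 in wild type, and 0.288 and 0.491 in eGFP-YAP. On chromosome 22 it was 0.532 (0.381 to 0.735) and 0.882 (0.689 to 1.13) in wild type, and 0.462 (0.335 to 0.631) and 0.651 (0.527 to 0.802) in eGFP-YAP, where the intervals overlap.

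The relation differed with span, the distance between the anchor centres. For loops under 200 kb the ratio was 0.404 (0.224 to 0.702) in gene-poor windows of 0 to 4 gene starts and 0.693 (0.562 to 0.853) in gene-dense windows of 20 or more in wild type, and 0.409 (0.222 to 0.723) and 0.448 (0.367 to 0.544) in eGFP-YAP. For loops of 200 to 500 kb it was 0.268 (0.141 to 0.480) and 1.30 (0.970 to 1.76) in wild type, and 0.125 (0.0624 to 0.229) and 0.845 (0.677 to 1.05) in eGFP-YAP. In loops of 200 to 500 kb the intervals of the end classes were apart in both lines, and in shorter loops they overlapped. Wild-type loops under 200 kb still had a lower ratio in windows of 5 to 9 gene starts, 0.352 (0.245 to 0.497), than in gene-dense windows, and over windows their rank correlation with gene starts was 0.34, against 0.13 for eGFP-YAP loops of that span. At 500 kb and over, gene-dense windows held 3 control and 9 sorbitol loops in wild type and 31 and 36 in eGFP-YAP, against 41 and 10, and 87 and 20, in gene-poor windows.

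The median sorbitol loop was longer than the median control loop on these chromosomes, with overlapping intervals, and shorter on the other chromosomes, with intervals that did not overlap. The median span was 170 kb (160 to 180) in control and 187.5 kb (170 to 205) with sorbitol in wild type, and 205 kb (195 to 215) and 225 kb (205 to 240) in eGFP-YAP. On all other chromosomes it was 245 kb (240 to 250) in control and 220 kb (210 to 225) with sorbitol in wild type, and 265 kb (260 to 270) and 230 kb (225 to 240) in eGFP-YAP. In gene-dense windows the intervals of the medians did not overlap. There the median was 130 kb (120 to 145) in control and 175 kb (160 to 195) with sorbitol in wild type, and 160 kb (145 to 175) and 222.5 kb (200 to 240) in eGFP-YAP. In gene-poor windows it was 302.5 kb (260 to 375) and 240 kb (150 to 345) in wild type, and 400 kb (355 to 460) and 415 kb (195 to 640) in eGFP-YAP, with overlapping intervals. Control loops thus became shorter as genes became denser, while the spans of sorbitol loops varied less between windows of 5 or more gene starts.

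**Figure D3:**
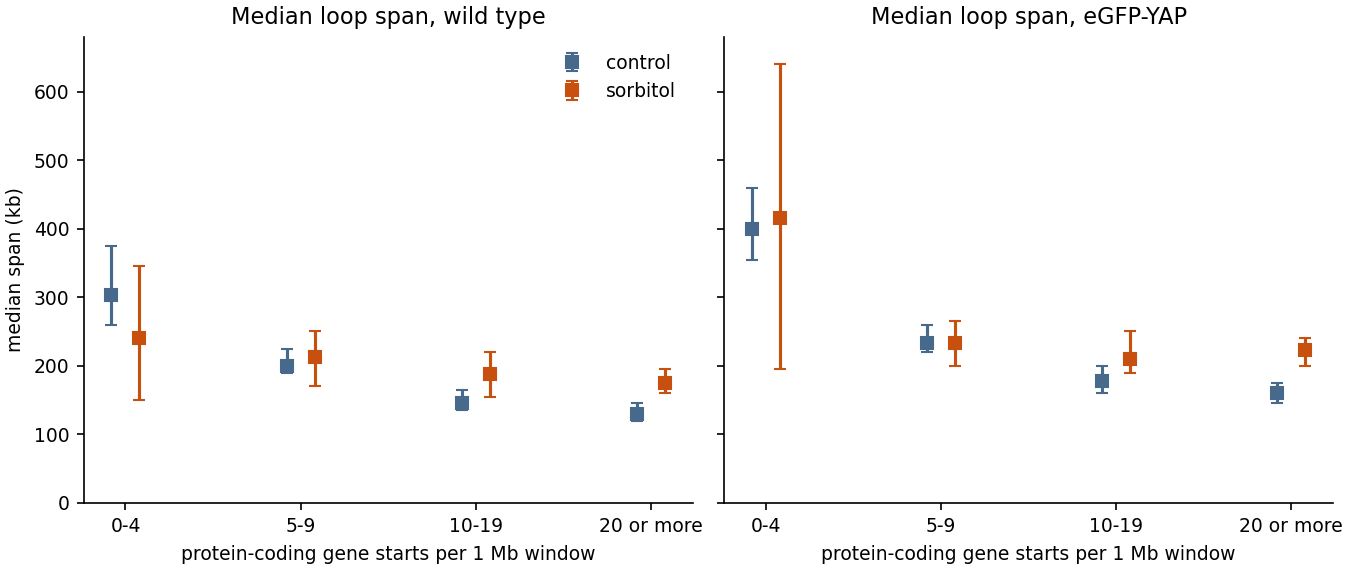
Median loop span in kb by protein-coding gene starts per 1 Mb window, for control (blue) and sorbitol (orange) loops in wild type and eGFP-YAP, with 95% order-statistic intervals over loops. In windows of 20 or more gene starts the sorbitol median lies above the control median in both lines, 175 kb against 130 kb and 222.5 kb against 160 kb.

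Kept loops ranked high in their control lists. In wild type the median score percentile was 74.7 (59.0 to 81.4) for kept and 45.5 (42.6 to 49.0) for lost loops. In eGFP-YAP it was 77.7 (71.1 to 85.1) for kept and 43.6 (41.7 to 46.1) for lost loops. Gained loops had medians of 40.9 (37.4 to 46.7) and 42.1 (39.0 to 46.7) within their sorbitol lists. Of the gained loops, 17.1% in wild type and 22.5% in eGFP-YAP had a control anchor within 10 kb at both ends, 47.4% and 52.6% at a single end, and 35.4% and 24.95% at neither. The share of all bins within 10 kb of a control anchor was not computed. The control lists also differ in length, 1027 and 1588 loops, so these shares are descriptions and the lines cannot be compared by them.

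On each chromosome, the 2 windows with the most gained loops over both lines lay at 2 Mb and 89 Mb of chromosome 16, 7 Mb and 75 Mb of chromosome 17, and 41 Mb and 50 Mb of chromosome 22. Each held at least 23 gene starts. The genes named for windows here were chosen after their values were seen, from those whose starts lay in the most anchors of gained loops of both lines, and neighbouring genes can share an anchor. In chr16:89000001-90000000, with 23 gene starts, the wild-type lists held 3 control and 18 sorbitol loops, all 18 gained, and the eGFP-YAP lists 11 and 17, with 16 gained. Loops are placed by midpoint, so their anchors can lie outside the window. The starts of GALNS, a lysosomal sulfatase gene, and TRAPPC2L, a vesicle tethering gene, lie before this window, at chr16:88856970 and chr16:88856220. They fall in the same 5 kb bin and lay in the same 2 anchor ends of these gained loops. In chr17:7000001-8000000, the densest window with 70 gene starts, there were 12 control and 18 sorbitol loops in wild type and 19 and 21 in eGFP-YAP, and 17 were gained in each line. POLR2A, which encodes the largest subunit of RNA polymerase II, and GABARAP, an autophagy gene, each started in 4 anchor ends of gained loops. In chr17:75000001-76000000, with 37 gene starts, 11 control loops stood against 10 with sorbitol in wild type and 14 against 13 in eGFP-YAP. The lists were of nearly the same length there, and 9 of the 10 and 13 of the 13 sorbitol loops were gained. Over all windows of 20 or more gene starts, 89.8% and 80.6% of sorbitol loops were gained. CASKIN2 and TSEN54, a tRNA splicing gene, start in the same 5 kb bin and so in the same 5 anchor ends of gained loops.

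On chromosome 16, the window chr16:2000001-3000000, with 42 gene starts, had 9 control and 10 sorbitol loops in wild type and 5 and 14 in eGFP-YAP. PGP and BRICD5 start in the same 5 kb bin and so in the same 3 anchor ends of its gained loops. On chromosome 22, chr22:41000001-42000000 had 7 and 16 loops in wild type and 10 and 12 in eGFP-YAP. XRCC6, for the DNA end-binding protein Ku70, started in 2 anchor ends there. The last window of the chromosome, chr22:50000001-50818468, had 9 and 17 loops in wild type and 13 and 14 in eGFP-YAP, with ARSA, a lysosomal sulfatase gene, and TUBGCP6, for a subunit of the microtubule-nucleating gamma-tubulin ring, at 3 anchor ends each.

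Sorbitol loops outnumbered control loops in 18 of 122 wild-type windows of at least 5 loops and in 10 of 153 eGFP-YAP windows. Over all chromosomes this was so in 8.87% and 3.85% of such windows. It was so in both lines in 8 windows with at least 10 loops over the 4 lists. These were the windows at 2, 31 and 89 Mb of chromosome 16, at 7 Mb of chromosome 17, and at 38, 41, 44 and 50 Mb of chromosome 22. Of these, the window at 44 Mb of chromosome 22 was the exception in gene density, with 6 gene starts, 13 control and 15 sorbitol loops in wild type, and 7 and 9 in eGFP-YAP. At 31 Mb of chromosome 16 the wild-type counts were 0 and 2 and the eGFP-YAP counts 12 and 14.

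The 2 windows per chromosome with the most lost loops ranged more widely in gene density. In chr16:86000001-87000000, with 4 gene starts, 18 control and 5 sorbitol loops were called in wild type and 19 and 5 in eGFP-YAP, and 17 control loops were lost in each line. This window holds FOXF1, FOXC2 and FOXL1, forkhead transcription factor genes of mesoderm development. In chr17:48000001-49000000, with 24 gene starts, there were 15 and 4 loops in wild type and 23 and 7 in eGFP-YAP. It holds the HOXB cluster of body-axis genes. In chr22:32000001-33000000, with 9 gene starts, there were 12 and 2 loops in wild type and 22 and 7 in eGFP-YAP. In chr22:49000001-50000000, with 5 gene starts, there were 19 and 7 in wild type and 10 and 4 in eGFP-YAP. In chr17:81000001-82000000, with 36 gene starts, there were 15 and 11 in wild type and 17 and 8 in eGFP-YAP. In chr16:67000001-68000000, with 46 gene starts, the lines went opposite ways, with 10 control and 16 sorbitol loops in wild type and 21 and 5 in eGFP-YAP.

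The ratio was highest at some of the chromosome ends. In the first 5 Mb of chromosome 16, with 192 gene starts, 36 control and 44 sorbitol loops were called in wild type, a ratio of 1.22 (0.769 to 1.95), and 32 and 35 in eGFP-YAP, 1.09 (0.658 to 1.82). In the remainder of that chromosome, outside 5 Mb at each end, the ratio was 0.483 (0.375 to 0.617) and 0.303 (0.245 to 0.373). At the long-arm end of chromosome 16, with 61 gene starts, it was 0.933 (0.598 to 1.45) and 0.648 (0.411 to 1.01). On chromosome 17 the short-arm end, with 106 gene starts, had 23 control and 34 sorbitol loops in wild type, 1.48 (0.846 to 2.63), and 43 and 27 in eGFP-YAP, 0.628 (0.373 to 1.04). Its long-arm end, with 93 gene starts, had 0.540 (0.345 to 0.832) and 0.552 (0.347 to 0.864). The remainder had 0.378 (0.312 to 0.457) and 0.398 (0.343 to 0.460). At the long-arm end of chromosome 22 the wild-type ratio of 0.667 (0.398 to 1.10) and the eGFP-YAP ratio of 0.718 (0.425 to 1.20) were within counting error of the remainder, 0.742 and 0.566.

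Anchors of gained loops held a protein-coding gene start more often than those of lost loops. In wild type the shares were 26.1% (23.5 to 28.9) of 1016 gained, 13.8% (9.26 to 19.9) of 160 kept and 9.40% (8.16 to 10.8) of 1894 lost anchors, against 5.40% of all sequenced 5 kb bins of these chromosomes. In eGFP-YAP a gene start lay in 33.9% (31.1 to 36.8) of 1042 gained, 17.4% (13.99 to 21.5) of 390 kept and 11.7% (10.5 to 12.9) of 2786 lost anchors. Gained anchors also had the higher share than lost anchors within each class of windows with 5 or more gene starts. In windows of 20 or more gene starts, where 12.9% of bins hold a gene start, gained anchors had 30.3% (26.4 to 34.5) and lost anchors 14.6% (11.9 to 17.7) in wild type, and 40.7% (36.7 to 44.9) and 19.4% (16.99 to 21.97) in eGFP-YAP. In windows of 5 to 9 gene starts, where 3.34% of bins hold one, gained anchors had 23.3% (17.6 to 30.1) and lost anchors 5.31% (3.68 to 7.62) in wild type, and 28.5% (22.5 to 35.4) and 5.42% (3.92 to 7.44) in eGFP-YAP. In windows of 0 to 4 gene starts the classes could not be told apart, with 5.26% (2.07 to 12.8) and 6.88% (4.45 to 10.5) in wild type and 10.9% (5.40 to 20.9) and 5.50% (3.69 to 8.12) in eGFP-YAP.

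In wild type, 12.6% (9.99 to 15.8) of gained and 1.16% (0.650 to 2.07) of lost loops had a gene start at both anchors. In eGFP-YAP, 18.2% (15.2 to 21.8) of gained and 2.23% (1.57 to 3.14) of lost loops did. In gene-poor windows, where few gene starts exist, no gained loop of either line had both, of 38 and 32 loops, and no lost loop, of 138 and 209. In gene-dense windows 14.2% (10.4 to 19.1) and 23.4% (18.7 to 28.7) of gained loops did, against 3.16% (1.67 to 5.89) and 4.97% (3.36 to 7.29) of lost loops.

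**Figure D4:**
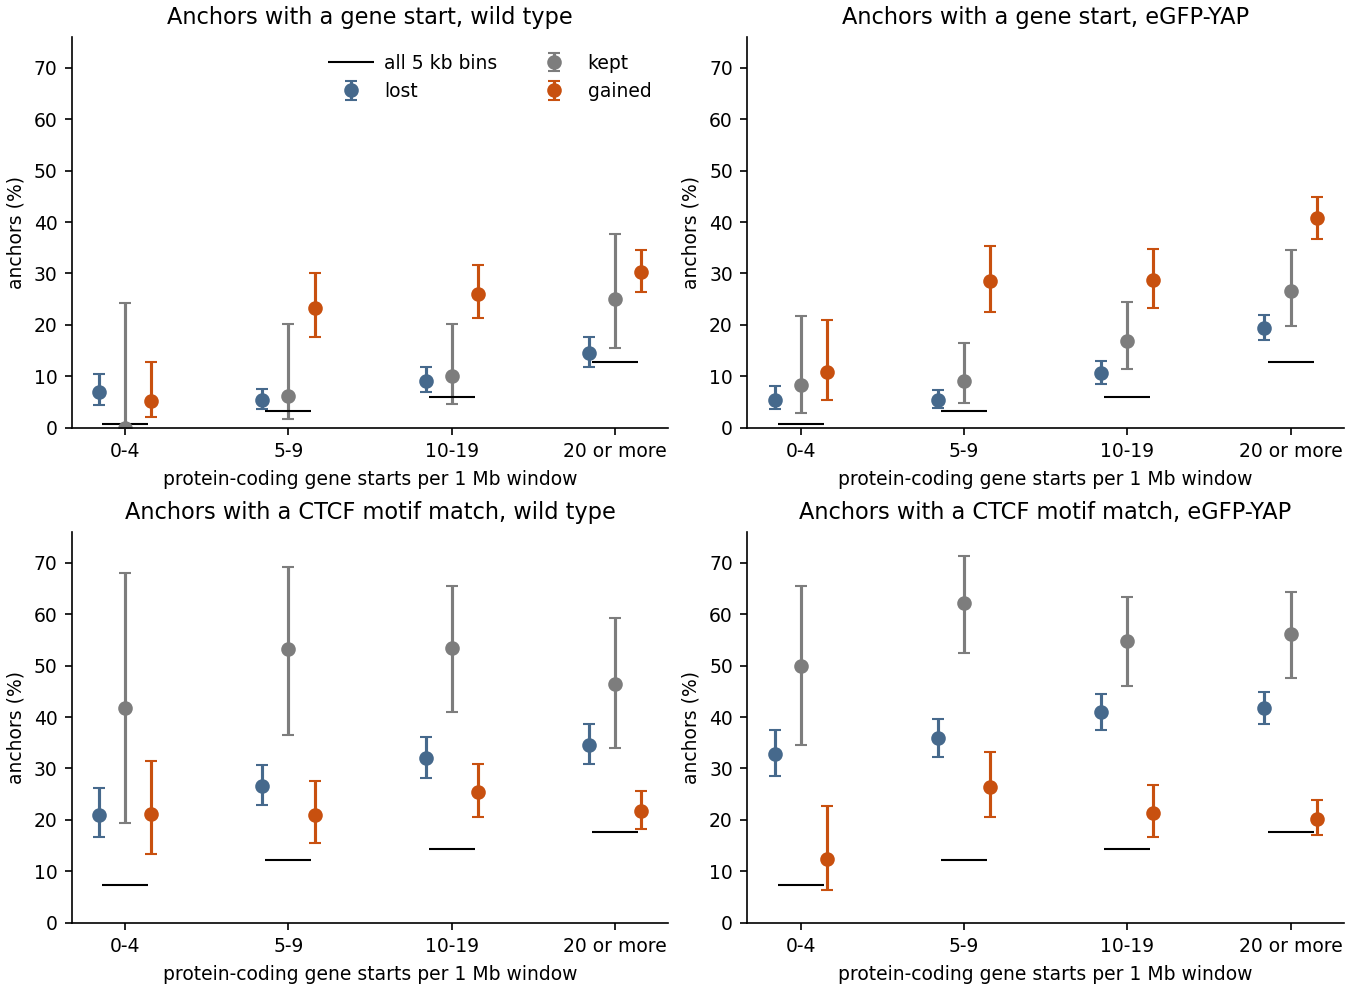
Share of loop anchors with a protein-coding gene start (upper row) and with a CTCF core motif match (lower row) by gene starts per 1 Mb window, for lost, kept and gained loops of each line, with 95% Wilson intervals, and the share of all sequenced 5 kb bins (black bars). In windows of 20 or more gene starts, gained anchors have the highest point for gene starts, 30.3% and 40.7%, and the lowest for the motif, 21.7% and 20.3%.

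Over all windows together, the CTCF motif was most frequent in kept and least frequent in gained loops. A match was present at 80 of 160 kept anchors, 29.7% (27.7 to 31.8) of lost and 22.5% (20.1 to 25.2) of gained ones in wild type, against 12.5% of all bins. In eGFP-YAP it was present at 56.7% (51.7 to 61.5) of kept, 38.8% (37.0 to 40.7) of lost and 21.1% (18.7 to 23.7) of gained anchors. A match marks sequence, not bound protein. Matches became more frequent in all bins as genes became denser, from 7.42% in gene-poor to 17.6% in gene-dense windows. Among lost anchors the share went from 21.0% (16.6 to 26.2) to 34.6% (30.8 to 38.6) in wild type and from 32.8% (28.4 to 37.4) to 41.7% (38.6 to 44.9) in eGFP-YAP. Gained anchors of gene-dense windows had 21.7% (18.3 to 25.6) and 20.3% (17.1 to 23.8), and in eGFP-YAP this interval includes the share of all bins there. In gene-poor windows gained anchors had 21.1% (13.4 to 31.5) in wild type, about the share of lost ones, and 12.5% (6.47 to 22.8) in eGFP-YAP. The intervals of gained and lost anchors also overlapped in windows of 5 to 9 gene starts in both lines. In windows of 10 to 19 they overlapped in wild type only. Of loops with motifs on a single strand in each anchor, the motifs pointed towards each other in 15 of 17 kept, 58 of 95 lost and 10 of 23 gained loops in wild type, and in 47 of 52, 145 of 199 and 12 of 23 in eGFP-YAP. The intervals of the gained loops, 25.6% to 63.2% and 33.0% to 70.8%, overlapped those of the lost loops in both lines.

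Over all windows together, gained anchors were also richer in G and C. The median GC content of gained and lost anchors was 51.3% and 48.2% in wild type, 51.2% and 48.0% in eGFP-YAP. For all bins it was 44.6%. A GC box was present in 81.5% (79.0 to 83.8) and 84.8% (82.5 to 86.9) of gained anchors and in 73.0% (71.0 to 74.97) and 73.2% (71.5 to 74.8) of lost anchors, against 56.8% of all bins of the same length. The body of a protein-coding gene overlapped 76.9% (74.2 to 79.4) and 77.2% (74.5 to 79.6) of gained anchors and 63.4% (61.2 to 65.6) and 64.1% (62.3 to 65.8) of lost anchors, against 55.1% of bins. In windows of 0 to 4 gene starts, median GC of gained and lost anchors was 45.68% and 45.71% in wild type, 46.17% and 44.71% in eGFP-YAP. GC box and gene body intervals overlapped there in both lines. In windows of 20 or more, median GC was 53.35% and 51.25%, and 53.44% and 51.38%. Gene body intervals were apart there in both lines, and GC box intervals in eGFP-YAP only.

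Of the 79 loops gained in both lines, 44 lay in windows of 20 or more gene starts and 2 in windows of 0 to 4. Among all gained loops, 246 of 508 in wild type and 274 of 521 in eGFP-YAP lay in windows of 20 or more. Windows of 0 to 4 held 38 and 32 of them. A gene start lay in at least 1 wild-type anchor of 46 of the 79 shared loops, 58.2% (47.2 to 68.5), and in both anchors of 18, 22.8% (14.9 to 33.2). Of the 359 loops lost in both lines, 63 had a gene start in at least 1 anchor, 17.5% (13.96 to 21.8), and 5 in both. Of the 31 loops called in all 4 lists, 3 had a gene start in at least 1 anchor, and 51.6% (39.4 to 63.6) of anchors had a motif match, against 21.5% (15.8 to 28.6) in loops gained in both lines. A further 6 of the 18 loops with gene starts at both anchors are given here, chosen after their values were seen. Their mean score percentiles ran from 14.6 to 74.9, below those of the loops shown first. The genes are those of the wild-type anchors. The eGFP-YAP anchors were the same for the MYH9 and GSDMA loops, and at least 1 was shifted by 5 kb or 10 kb in the other 4. The shifted eGFP-YAP anchors did not hold the starts of CTCF, JOSD1, H3-3B, MRPL38 and DDX42 named below. A 280 kb loop joined the start of CTCF itself, in chr16:67560001-67565000, to the start of the transcription factor gene THAP11, in chr16:67840001-67845000. In eGFP-YAP its left anchor was chr16:67565001-67570000, which does not hold the CTCF start. A 195 kb loop joined the starts of DDX17, an RNA helicase gene, in chr22:38505001-38510000 and JOSD1, a deubiquitinase gene, in chr22:38700001-38705000. A 95 kb loop joined the start of MYH9, for a non-muscle myosin heavy chain, in chr22:36385001-36390000 to that of TXN2, for mitochondrial thioredoxin, in chr22:36480001-36485000. On chromosome 17 a 120 kb loop joined H3-3B, for a replacement histone H3, in chr17:75785001-75790000 to MRPL38, a mitochondrial ribosome gene, in chr17:75905001-75910000. Another, of 55 kb, joined DDX42, an RNA helicase gene, in chr17:63770001-63775000 to PSMC5, a proteasome subunit gene, in chr17:63825001-63830000. A 150 kb loop joined GSDMA, a gasdermin gene, in chr17:39950001-39955000 to NR1D1, a nuclear receptor gene of the circadian clock, in chr17:40100001-40105000.

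Named gene groups were described by the loops with an anchor in or within 10 kb of a gene body. Counts were small, and the shares of lost and gained loops over all chromosomes given above are their background. The group of osmotic stress and MAP kinase genes (NFAT5, for a transcription factor that responds to high salt, 5 MAP kinases and 3 MAP kinase kinases) had 12 control loops in wild type, all lost, and 5 sorbitol loops, all gained. In eGFP-YAP it had 17 control loops, of which 15 were lost, and 5 sorbitol loops, of which 3 were gained. NFAT5 had only control loops, 2 in wild type and 4 in eGFP-YAP, all of them lost. MAP2K6, a kinase upstream of p38, had 4 control loops and no sorbitol loop in each line. MAPK12, a p38 kinase gene, had 2 control and 5 sorbitol loops in wild type and 5 and 3 in eGFP-YAP.

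The forkhead genes had 15 control and 4 sorbitol loops in wild type and 13 and 5 in eGFP-YAP, with 1 and 2 control loops kept, so that the shares lost were near those over all chromosomes. SOX9, for a transcription factor of cartilage and gonad, had 4 and 5 control loops and no sorbitol loop. The HOXB genes had 4 control and 1 sorbitol loop in wild type and 12 and 2 in eGFP-YAP, with 0 and 2 control loops kept. The APOL genes, a cluster of apolipoprotein L genes, had 4 and 3 control loops, all lost, and no sorbitol loop. The Iroquois genes, homeobox genes of patterning, had 1 control loop, lost, and 1 gained loop in each line, and the gained loop had an anchor within 10 kb of IRX3 and of IRX5. It spanned 645 kb in wild type, from chr16:54280001-54285000 to chr16:54925001-54930000. The cadherin genes, for cell adhesion proteins, had 6 control loops and 9 sorbitol loops in wild type and 14 and 7 in eGFP-YAP, with none kept. Most of their sorbitol loops were at CDH15, in the window at 89 Mb of chromosome 16, with 1 control and 7 sorbitol loops in wild type and 5 and 6 in eGFP-YAP.

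In the other groups the counts allowed no comparison. The group of 62 type I keratin and keratin-associated protein genes had 4 control loops and no sorbitol loop in wild type. In eGFP-YAP it had 6 of each, and none was kept in either line. The metallothionein genes had 2 loops in each wild-type list and 1 and 0 in eGFP-YAP. The APOBEC3 genes had 5 control and 2 sorbitol loops in wild type and 3 and 3 in eGFP-YAP. The CC chemokine genes had 2 and 1 in wild type and 6 and 2 in eGFP-YAP, and none of these sorbitol loops was gained. The myosin heavy chain genes had 3 and 1, and 6 and 2. The genes TBX1, DGCR8 and CRKL of chromosome 22 had no loop in wild type and 1 control and 1 sorbitol loop in eGFP-YAP, and lie in the stretch where wild type had few loops. CTCF had 1 control and 1 sorbitol loop in each line. The sorbitol loop was gained in both, and the control loop was lost in eGFP-YAP but not in wild type.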

How the data were processed

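In situ Hi-C libraries were cut with MboI, per the labels' protocols, and the build is hg38, per the submitters' processing notes. The deposited lists have the column headers of the SIP loop caller. Its version and settings, the map normalisation and the depth are not given in the sources used here. The deposited peak score has no fixed scale and was used only to rank loops within a list. A second deposited column, a probability of enrichment given as a fraction, starts at 0.900 and was not filtered. The lists' conditions were read from their names. No anchor lay beyond the chromosome ends of hg38, and 4 loops of all lists with reversed anchors were sorted. Genes are from GENCODE release 44.

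Loops matched when both anchor centres lay within 10 kb. Windows of 1 Mb started at the first base and were used when at least 50% sequenced. Shares have Wilson, ratios exact Clopper-Pearson and medians order-statistic 95% intervals, and loops are not independent. Motif matches could lie on either strand and have up to 1 mismatch. Matching and window placement were tested on simulated data. Python 3.11.15, numpy 2.4.6, pandas 2.3.3, SciPy 1.17.1 and matplotlib 3.10.9 were used.

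The chromosomes, lists and rules were chosen with earlier results of these data known. The named windows were those with the most gained or lost loops per chromosome and those where sorbitol loops outnumbered control loops in both lines. The named loops were, per chromosome, the gained, the lost and the 4-list loop matched between lines with the highest mean score percentile. The top lost loop of chromosome 17, in whose place the next stands, and a few other results are not reported here. Alternatives were the matching distance, score filter, merging, list length, window size and position, gene set, anchor width, mismatches and leaving out each chromosome.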

Additional observations from a re-analysis of the deposited data

Results flagged for a closer look

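Of 29 contrasts computed for each line, 6 were positive in one line and negative in the other. None of these differences between the lines was tested, since each line has 1 list per condition. The ratio of sorbitol to control loops on chromosome 16 minus that on chromosome 17 was 0.197 (wild type) and -0.028 (eGFP-YAP). The percent of control loops lost on chromosome 22 minus that on chromosome 16 was 2.49 (wild type) and -4.81 (eGFP-YAP). The percent of sorbitol loops gained on chromosome 22 minus that on chromosome 16 was 5.00 and -0.075. For both the lost and the gained percent, the intervals of chromosomes 22 and 16 overlapped in each line. Between 16 and 25 Mb of chromosome 22 wild type had 11 control loops and eGFP-YAP 101, and the part of this stretch in these contrasts was not tested. The median span of kept minus lost loops was -32.5 kb (wild type) and 5 kb (eGFP-YAP), with overlapping intervals of the medians in each line. In gene-poor windows the median span of sorbitol minus control loops was -62.5 kb and 15 kb, with overlapping intervals of the medians in each line. In the window at 67 Mb of chromosome 16, sorbitol minus control loops was 6 (wild type) and -16 (eGFP-YAP).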

How the results depend on the processing

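Of 118 values under alternative settings, 76 lay within the 95% interval of the main value and 42 lay outside it. Direction was checked only for the ratios and rank correlations, of which 0 changed direction. Merging neighbouring loops left the main values unchanged, and these values count among the 76. Identical anchor bins gave 98.9% and 96.0% of control loops lost and 98.1% and 91.1% of sorbitol loops gained in wild type and eGFP-YAP. Matching at 25 kb gave 83.1% and 81.3% lost and 70.7% and 59.5% gained. A control list shortened to the length of the sorbitol list gave 89.8% and 80.3% lost and 89.5% and 80.3% gained. Leaving out chromosome 17 raised the wild-type ratio of loop counts to 0.686 and the rank correlation with gene density to 0.65, and leaving out chromosome 22 lowered the eGFP-YAP ratio to 0.412. The ratio in gene-dense windows was 2.86 times that in gene-poor windows in wild type and 2.81 times in eGFP-YAP. For loops of 200 to 500 kb, an alternative chosen after seeing the data, these were 4.87 and 6.76, and for loops under 200 kb 1.71 and 1.10, where the rank correlations were 0.34 (wild type) and 0.13 (eGFP-YAP). In windows of 500 kb the eGFP-YAP correlation was 0.30. Without the 5 Mb at each chromosome end, also chosen afterwards, the values stayed within the main intervals. Counting all annotated genes, gene starts lay in 34.4% and 45.9% of gained and 19.5% and 23.1% of lost anchors. Anchors widened by 5 kb on each side gave 49.8% and 57.6% of gained and 24.4% and 27.5% of lost anchors with a gene start, and 52.4% and 49.5% of gained and 57.3% and 63.2% of lost anchors with a motif. With no motif mismatch these were 3.35% and 4.03% of gained and 7.39% and 9.94% of lost anchors. In the upper 50% by score, motif shares were 26.5% and 23.9% of gained and 36.2% and 46.6% of lost anchors, and 32.6% of wild-type gained anchors had a gene start. Gained anchors had the higher share of gene starts and lost anchors that of motifs under each of these alternatives. No paired analysis was possible because each condition has 1 pooled list without replicate numbers. Depth is unknown, so a loop not called is not shown to be absent.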
